A study of Homo sapiens with 9 samples.

Results

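The genes described here are those of the human mitochondrial genome. They were taken as every gene whose symbol starts with MT followed by a dot or a hyphen, which gave 37 of the 58174 genes listed in the deposited tables. The 37 genes comprised 13 mRNAs, 2 rRNAs and 22 tRNAs. RNA was sequenced from ES-2 cells, an established human line derived from an ovarian cancer, 72 h after transfection of siRNAs. The 3 groups were cells given control siRNA (siC), a siRNA pool directed against the RNA-binding protein IGF2BP1 (siIGF2BP1, named siImp1 in the sample titles) or a siRNA pool directed against the transcription factor SRF (siSRF). Each group held 3 libraries, and all 9 came from the same line, culture medium and time point. A knockdown by transient transfection lowers its target without removing it, and a single cell line was examined. Total RNA was depleted of ribosomal RNA and made into strand-specific libraries. Values were deposited as FPKM, a read density scaled for gene length and for the depth of the library.

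Human mitochondria carry a small circular genome of their own, which nuclear-encoded proteins transcribe, process and translate. Both of its strands are transcribed into long precursors that span many genes. Most tRNAs lie between the mRNAs and rRNAs, and their excision by the mitochondrial RNase P and the 3′ tRNA processing enzyme ELAC2 releases the RNAs on either side. The mRNAs encode subunits of respiratory complexes I, III and IV and of the ATP synthase, complex V, whereas all other subunits are made from nuclear genes. The nuclear genome also holds many old insertions of mitochondrial DNA, and some of these retain long stretches of near-identical sequence.

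One such insertion on chromosome 1 lies close enough in sequence to bear on how reads of the mitochondrial mRNAs can be placed. The stretches of 30 bases below were chosen as those with the most differences within each aligned pair and are shown because they are where the gene and its copy can best be told apart. They are from the hg38 reference, plus strand, 5′ to 3′, and capitals mark the bases that differ.

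MT-CO1, chrM:6213-6242: ctcttaccTccctctctcctactcctgctC

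MTCO1P12, chr1:631383-631412: ctcttaccCccctctctcctactcctgctT

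MT-ATP6, chrM:8648-8677: gactaatCaccacccaacaatgactaatcA

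MTATP6P1, chr1:633817-633846: gactaatTaccacccaacaatgactaatcC

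MT-ND2, chrM:5469-5498: acGctActcctacctatctccccttttatA

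MTND2P28, chr1:630639-630668: acActGctcctacctatctccccttttatG

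MT-CO3, chrM:9519-9548: agcctagcCccTaccccccaaTtaggAggG

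MTCO3P12, chr1:634688-634717: agcctagcTccCaccccccaaCtaggGggA

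Even in these most divergent stretches the gene and its copy differed at 2 positions for MT-CO1 and MT-ATP6, at 3 for MT-ND2 and at 5 for MT-CO3. Elsewhere some identical runs were long. The longest run without a difference was 245 bases for MT-CO1, 141 for MT-ATP6, 266 for MT-ND2 and 124 for MT-CO3. Most windows of 75 bases in these aligned pairs nevertheless held a difference. The share without one was 36.62% for MT-CO1, 28.01% for MT-ATP6, 34.40% for MT-ND2 and 21.99% for MT-CO3. For the other pairs of this insertion it was 48.48% for MT-ND1, 10.49% for MT-CO2 and 0% for MT-ATP8. Their longest runs were 158, 108 and 62 bases.

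All 37 mitochondrial genes were listed at 0 FPKM in all 9 libraries. The value was 0 in siC libraries 1, 2 and 3, in siIGF2BP1 libraries 1, 2 and 3 and in siSRF libraries 1, 2 and 3, for each mRNA, rRNA and tRNA. The siC values appear in both deposited tables and were 0 in both. Since the FPKM values could be turned back into whole reads, the listed values correspond to 0 of the 6421764 to 9416175 reads recovered per library. The share of recovered reads was therefore listed as 0% for the mRNAs, 0% for the rRNAs and 0% for the tRNAs in every library. Because cells in general use these genes, the values are given only as listed, and no upper limit on the amount of mitochondrial RNA was derived from them. Reads were aligned to a UCSC copy of the genome and counted on an Ensembl annotation. Whether both gave the mitochondrial sequence the same name is not given in the sources used here, and its part in the values was not tested.

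Among the mRNAs, 7 encode subunits of complex I, the NADH dehydrogenase that feeds electrons into the respiratory chain. MT-ND1 (ENSG00000198888, chrM:3307-4262), MT-ND2 (ENSG00000198763, chrM:4470-5511), MT-ND3 (ENSG00000198840, chrM:10059-10404), MT-ND4L (ENSG00000212907, chrM:10470-10766), MT-ND4 (ENSG00000198886, chrM:10760-12137) and MT-ND5 (ENSG00000198786, chrM:12337-14148) lie on the plus strand. MT-ND6 (ENSG00000198695, chrM:14149-14673) is the only one of the 13 mRNAs on the minus strand. MT-ND5 was the longest gene of the set, with 1812 bases in the deposited tables. All 7 were listed at 0 FPKM in siC, siIGF2BP1 and siSRF alike, so the level of MT-ND6 could not be set against those of the 12 mRNAs of the other strand.

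MT-CYB (ENSG00000198727, chrM:14747-15887) encodes cytochrome b, the mitochondrial subunit of complex III, and was listed at 0 in the 9 libraries. The 3 core subunits of complex IV, the cytochrome c oxidase, are encoded by MT-CO1 (ENSG00000198804, chrM:5904-7445), MT-CO2 (ENSG00000198712, chrM:7586-8269) and MT-CO3 (ENSG00000198938, chrM:9207-9990). These too were listed at 0 throughout. The complex V genes MT-ATP8 (ENSG00000228253, chrM:8366-8572) and MT-ATP6 (ENSG00000198899, chrM:8527-9207) share 46 bases, the largest overlap in the set, and were both listed at 0. At 207 bases MT-ATP8 was the shortest mRNA, and the 13 mRNAs had a summed length of 11395 bases.

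The 2 rRNA genes, MT-RNR1 (ENSG00000211459, chrM:648-1601, 954 bases) and MT-RNR2 (ENSG00000210082, chrM:1671-3229, 1559 bases), encode the small and large ribosomal RNA of the mitochondrial ribosome. Both were listed at 0 FPKM in every library. Which rRNAs the depletion step removes is not given in the sources used here, and its part in these values was not tested. The 13 mRNAs and 22 tRNAs were listed at the same value.

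The 22 tRNA genes were between 59 and 75 bases long, with a summed length of 1508 bases, and were all listed at 0 FPKM in the 9 libraries. MT-TS2 (chrM:12207-12265), a serine tRNA, was the shortest, and MT-TL1 (chrM:3230-3304), a leucine tRNA that directly follows MT-RNR2, was the longest. Of the tRNA genes, 14 lie on the plus and 8 on the minus strand. With MT-ND6, these made 9 minus-strand genes among the 37.

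The 37 genes are packed closely. Of the 36 pairs of neighbouring genes, 20 touch with no base between them, 5 overlap, and the longest gap is 31 bases. The overlaps join MT-ATP8 with MT-ATP6, MT-ND4L with MT-ND4 over 7 bases, MT-TI with MT-TQ over 3 bases, MT-TC with MT-TY over 1 base and MT-ATP6 with MT-CO3 over 1 base. The gene lengths in the deposited tables equalled those of the annotation for 37 of 37 genes, so the genes were present in the tables with their full length while carrying no value above 0.

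A value of 0 in all libraries was common in the tables, but on none of chromosomes 1 to 22 and X did it cover every gene. Of all 58174 genes, 27489, or 47.3%, were listed at 0 in all 9 libraries. On chromosomes 1 to 22 and X the share ranged from 41.3% to 54.4%. For protein-coding genes alone it was 21.3% over the nuclear genes (4224 of 19786 genes). On single chromosomes among 1 to 22 and X it was between 12.9% and 38.5%, whereas all 13 mitochondrial protein-coding genes were at 0. The Y chromosome was left out of the ranges by chromosome, and its share is not given here. The plot of genes at 0 by chromosome sets the mitochondrial genome beside chromosomes 1 to 22 and X.

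**Figure D1:**
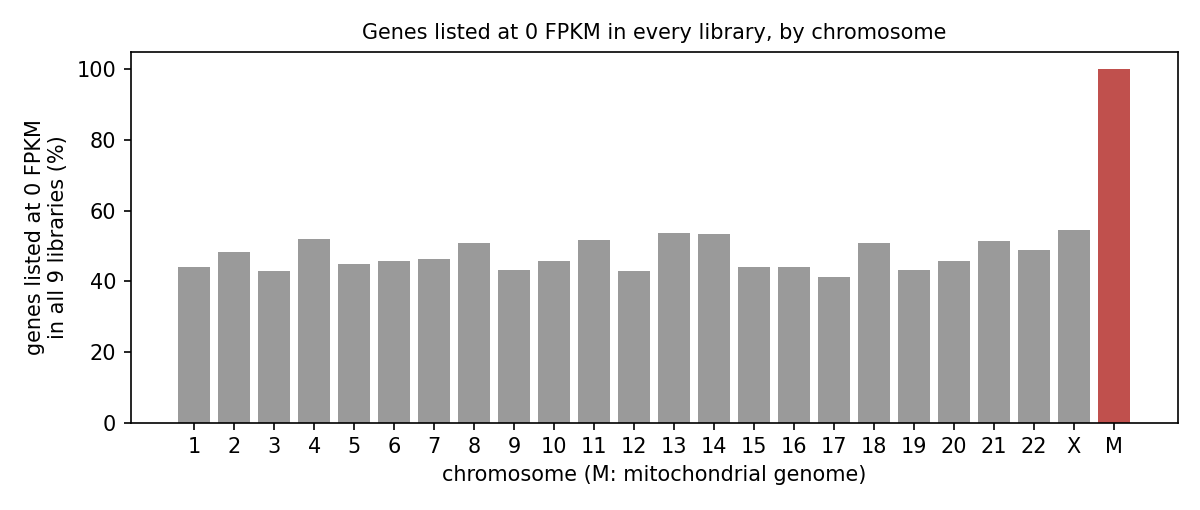
Share of genes listed at 0 FPKM in all 9 libraries (y axis, percent) for chromosomes 1 to 22, X and the mitochondrial genome M (x axis). Chromosomes 1 to 22 and X lie between 41.3% and 54.4%, and all 37 genes of M are at 0. The Y chromosome is not shown.

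Reads were present on nuclear copies of the same sequences. Among 392 genes whose symbols name them as pseudogenes of a mitochondrial gene, 62 had reads in at least 1 library and 16 in all 9. Together they held between 1665 and 2609 reads per library, or 0.0246% to 0.0301% of the recovered reads. Of these reads, 94.7% to 96.6% fell on the 7 copies of 1 block, chr1:629062-634922, which follows the mitochondrial order from MT-ND1 to MT-CO3. Within the parts that align, the copies were between 96.5% (MTND1P23) and 98.6% (MTCO1P12) identical to their mitochondrial genes. Reads of a mitochondrial gene and of its copy cannot be told apart in the identical runs, and how the authors treated reads with more than 1 placement is not given in the sources used here. From which of the 2 genomes these reads came was not tested.

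Differences were tested by limma on log2(FPKM + 0.1) over the genes that averaged 0.1 FPKM or more, and a gene was called higher or lower at an adjusted p of at most 0.01. In bulk RNA, less RNA per cell and fewer cells holding it cannot be told apart. MTCO1P12, the copy of MT-CO1, was the highest of the block. Its level was 95.9, 98.7 and 119 FPKM in siC libraries 1 to 3, 107, 95.6 and 90.7 in siIGF2BP1 and 93.4, 102 and 103 in siSRF. The 3 groups overlapped. MTATP6P1, the copy of MT-ATP6, stood at 78.5, 82.8 and 94.0 FPKM in siC, at 78.1, 100.2 and 85.5 in siIGF2BP1 and at 94.3, 107 and 135 in siSRF. The siSRF libraries lay above all siC libraries, by a narrow margin for the lowest of them. The log2 fold change of MTATP6P1 in siSRF against siC was 0.38 (95% confidence interval 0.05 to 0.72), and its adjusted p by limma was 0.102. With limma-voom on the recovered reads the adjusted p was 0.0026, so this call depended on the method.

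MTND2P28, the copy of MT-ND2, had 27.3, 30.2 and 31.3 FPKM in siC, 21.9, 30.5 and 24.2 in siIGF2BP1 and 38.1, 33.4 and 28.5 in siSRF. MTCO3P12, which covers only part of MT-CO3, ranged from 10.2 to 17.2 FPKM over all libraries, with a mean of 16.3 ± 1.05 in siC, 13.3 ± 2.84 in siIGF2BP1 and 12.7 ± 2.24 in siSRF (SD, n = 3). Its siSRF libraries lay below all siC libraries, the opposite order to MTATP6P1, with a log2 fold change of -0.37 (-0.70 to -0.04, adjusted p by limma 0.11). Copies of MT-ND1 and MT-CO2 lay between 1.19 and 6.51 FPKM. MTND1P23, the copy of MT-ND1, had between 4 and 16 reads per library, overlapping groups and log2 fold changes of -0.97 (-1.83 to -0.11) in siIGF2BP1 and -1.04 (-2.0 to -0.08) in siSRF, with adjusted p by limma of 0.129 and 0.118. MTATP8P1 had 1 read in each of 2 libraries and none in the others. None of the 7 copies was called by limma in any of the 3 comparisons. Over all genes tested, limma called 3.57% lower and 3.55% higher in siIGF2BP1 and 5.34% and 6.85% in siSRF against siC. Between the knockdowns it called 11.2% lower and 8.82% higher, so few calls among 7 genes would be looked for in any case. An unadjusted p under 0.05 was reached by 1 copy in siIGF2BP1 against siC, 3 in siSRF against siC and 1 between the knockdowns, and limma-voom called 0, 1 and 2. The shares of all genes that met these 2 criteria were not worked out, so nothing about the copies is drawn from these counts. At an unadjusted 95% confidence level, the interval of MTCO1P12 ran from -0.34 to 0.15 in siIGF2BP1 against siC and from -0.29 to 0.15 in siSRF against siC, on the log2 scale.

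**Figure D2:**
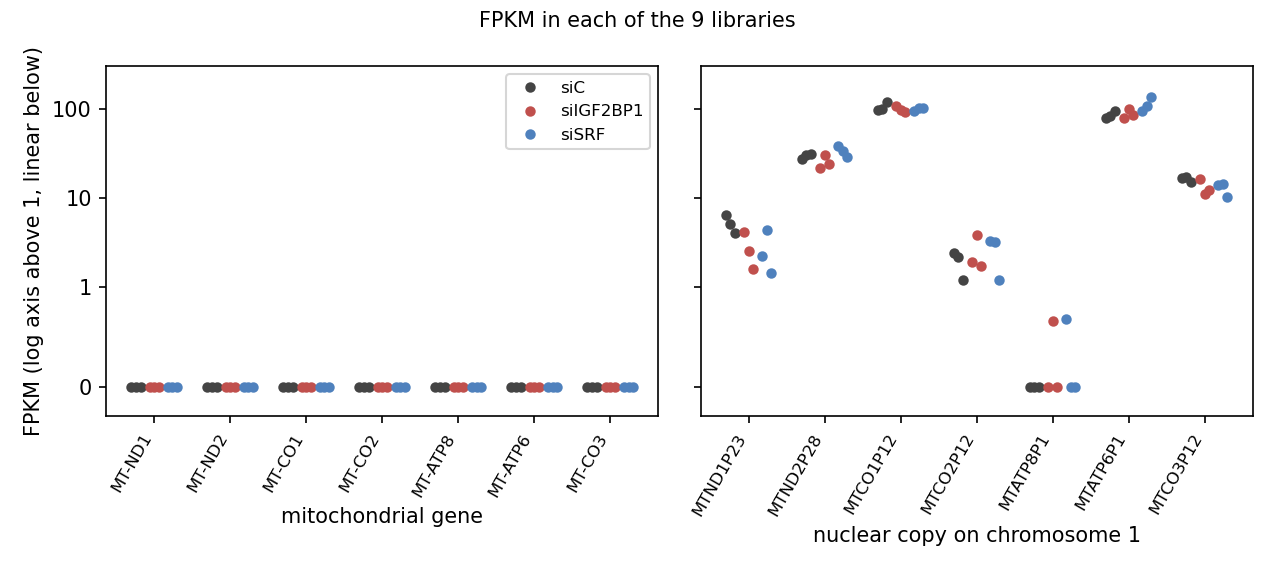
FPKM (y axis, logarithmic above 1 and linear below) of 7 mitochondrial mRNA genes (left) and of their copies on chromosome 1 (right), 1 point per library, coloured by siRNA group. Every mitochondrial gene lies at 0 in all 9 libraries, whereas MTCO1P12 lies between 90.7 and 119 FPKM.

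No mitochondrial gene could enter a comparison of the groups, because none had a value above 0 from which to fit one. What could be compared was the nuclear machinery that makes and turns over mitochondrial RNA.

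Transcription of the mitochondrial genome is carried out by the polymerase POLRMT with the factors TFAM and TFB2M and the elongation factor TEFM. POLRMT had 16.6, 19.4 and 18.5 FPKM in siC, 17.3, 15.8 and 16.7 in siIGF2BP1 and 18.5, 20.9 and 22.9 in siSRF. TFAM, which also packages the genome, lay between 27.1 and 35.2 FPKM in all libraries. Neither was called in any comparison, although with limma-voom both were lower in siIGF2BP1 than in siSRF (adjusted p 0.00033 and 0.0024). TFB2M, which opens the promoter, had 23, 23.3 and 28.7 FPKM in siC, 16.9, 17.4 and 18.9 in siIGF2BP1 and 33.1, 32.9 and 36.3 in siSRF. The 3 groups of TFB2M did not overlap. Its log2 fold change was -0.49 (-0.72 to -0.25, adjusted p by limma 0.0206) in siIGF2BP1 and 0.45 (0.22 to 0.68, adjusted p 0.018) in siSRF against siC, and neither passed the threshold, although both did with limma-voom on the recovered reads (adjusted p 0.00036 and 0.00018). The difference between the knockdowns did, with siIGF2BP1 lower than siSRF by a log2 value of -0.94 (adjusted p by limma 0.000131). For TEFM this difference was -0.53 (adjusted p 0.00521), a call that was lost without any 1 of the 6 libraries.

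LRPPRC and SLIRP form the complex that binds and stabilises mitochondrial mRNAs. LRPPRC had 44.9, 39.6 and 45.0 FPKM in siC, 39.8, 41.5 and 42.2 in siIGF2BP1 and 59.5, 57.9 and 60.4 in siSRF. All siSRF libraries lay above the other 6. The log2 fold change of LRPPRC in siSRF was 0.46 (0.31 to 0.60, adjusted p by limma 0.00322). SLIRP likewise had 28.4, 28.6 and 25.4 FPKM in siSRF against 19.6, 17.7 and 18.5 in siC, a log2 fold change of 0.56 (0.40 to 0.72, adjusted p by limma 0.0023).

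PNPT1, a ribonuclease, and the helicase SUPV3L1 together degrade mitochondrial RNA. PNPT1 had 13.7, 14.7 and 15.5 FPKM in siC, 13.5, 12.3 and 12.9 in siIGF2BP1 and 24.2, 25.8 and 24 in siSRF. Its siSRF libraries were higher than all others, with a log2 fold change of 0.75 (0.60 to 0.90, adjusted p by limma 0.000737). SUPV3L1 had 17.3, 17.1 and 16.3 FPKM in siSRF against 12, 10.4 and 12.3 in siC, a log2 fold change of 0.55 (0.37 to 0.73, adjusted p by limma 0.00387). In siIGF2BP1 none of these 4 genes was called against siC, with log2 fold changes from -0.23 for SLIRP to -0.07 for LRPPRC. All 4 were lower in siIGF2BP1 than in siSRF, by -0.52 for LRPPRC to -0.93 for PNPT1. The call of PNPT1 in siSRF held without any single library, whereas those of LRPPRC, SLIRP and SUPV3L1 were lost without some of them, with adjusted p of up to 0.018, 0.015 and 0.022.

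**Figure D3:**
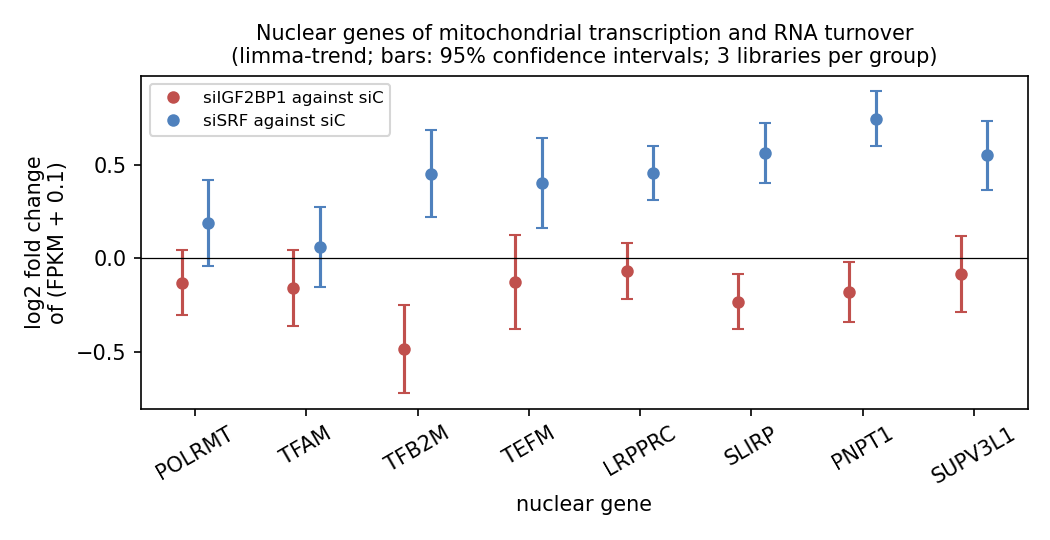
Log2 fold change of FPKM + 0.1 (y axis) for 8 nuclear genes of mitochondrial transcription and RNA turnover (x axis), in siIGF2BP1 and in siSRF against siC, with 95% confidence intervals from limma and 3 libraries per group. PNPT1, SUPV3L1, LRPPRC and SLIRP lie between 0.46 and 0.75 in siSRF and between -0.23 and -0.07 in siIGF2BP1.

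Over 92 nuclear genes of mitochondrial transcription, RNA processing, RNA turnover, tRNA charging and their regulators, 6 were lower and 1 was higher in siIGF2BP1 than in siC. The background over all genes tested was 3.57% lower and 3.55% higher. These genes are well expressed, with a median of 9.71 FPKM, and genes at that level were called more often in general. Of 6952 protein-coding genes with a mean between 3 and 29 FPKM, 6.30% were lower and 6.62% higher. The 6.52% of the lists that were lower was close to the share at matching level. The 1.09% that were higher was below it. The median log2 fold change was -0.12 over the lists, 0.02 over all genes tested and -0.03 over the protein-coding genes of matching level. Those lower included MRM3, an rRNA methyltransferase, with 8.08, 8.96 and 9.78 FPKM against 15, 15.4 and 15 in siC (log2 fold change -0.76), and FASTKD5, which acts in processing of mRNAs without flanking tRNAs, with 6.08, 7.49 and 6.86 FPKM against 12.5, 11.4 and 14.8 (-0.91). TWNK, the DNA helicase of the mitochondrial replisome (-0.51), NSUN4, an rRNA methyltransferase (-0.52), and the coactivator PPRC1 (-0.41) were lower as well. YY1, a transcription factor, was the gene that was higher (0.30). These calls were fragile, as at most 1 lower and 0 higher calls were made when any single library was left out.

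Against siC, 3 genes of these lists were lower and 16 were higher in siSRF, out of 91 tested, where the background over all genes was 5.34% lower and 6.85% higher. Of the protein-coding genes of matching level, 10.4% were lower and 14.8% higher, against 3.30% and 17.6% of the lists. The median log2 fold change was 0.22 over the lists, 0.01 over all genes tested and 0.07 at matching level. By list, 1 of 19 genes of transcription and DNA maintenance and 3 of 25 of RNA processing were higher, and none was lower. The largest share was that of RNA stability and decay, where 6 of the 16 genes were higher and none was lower. Beside the 4 genes above, these were FASTKD3 (0.62), which regulates mitochondrial mRNA levels, and SLC25A33 (0.80), a pyrimidine nucleotide carrier of the inner membrane. Of 22 genes of mitochondrial tRNA charging, which include QRSL1, GATB and GATC beside the synthetases, 4 were higher, among them YARS2 (0.50) and KARS (0.52). GARS was lower (-0.57), and KARS and GARS also serve the cytoplasm. PTCD3, a protein of the mitochondrial ribosome, MRM3 and TWNK were higher by 0.55, 0.49 and 0.41. Among the regulators MYC (0.38) and YY1 (0.31) were higher, and SP1 (-0.44) and ESRRA (-0.53) were lower. Leaving out 1 library reduced the higher calls to between 3, without siSRF library 2, and 11, without siC library 3, and the lower calls to 1 or 2. The calls of PTCD3, MRM3 and GARS were kept in all 6 such fits. Those of FASTKD3, SLC25A33, KARS, TWNK, YY1 and SP1 were kept in 1 of 6, and those of YARS2, ESRRA and MYC in 2 to 5.

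Compared directly, 35 of 91 genes of the lists were lower and 3 were higher in siIGF2BP1 than in siSRF. The background over all genes was 11.2% lower and 8.82% higher, and for the protein-coding genes of matching level it was 23.5% lower and 15.6% higher. The median log2 difference was -0.30 over the lists and -0.10 over the protein-coding genes of matching level. Of the named genes of these lists, MRM3 showed the largest difference, -1.25 (adjusted p by limma 0.000115), and its 3 groups did not overlap. Without 1 library, between 21 and 26 genes were lower and 1 or 2 were higher. This comparison and the comparisons with siC share libraries, so their calls are not separate evidence.

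The mitochondrially encoded subunits work in complexes with nuclear-encoded ones, of which 72 were examined. In siIGF2BP1 6 of these were lower and 1 was higher than in siC, and in siSRF 5 were lower and 5 higher, with median log2 fold changes of -0.05 and 0.06. These counts make 8.33% lower and 1.39% higher in siIGF2BP1 and 6.94% in each direction in siSRF. The background over all genes tested was 3.57% lower and 3.55% higher in siIGF2BP1 and 5.34% and 6.85% in siSRF. For the protein-coding genes between 3 and 29 FPKM it was 6.30% and 6.62%, and 10.4% and 14.8%. That range was set from the lists above. COX4I1, COX8A and other subunits lie above it, so it does not match their level. COX4I1, a complex IV subunit that assembles with the products of MT-CO1 and MT-CO2, had 68.1, 77.7 and 72.7 FPKM in siC, 39.5, 38.4 and 38.5 in siIGF2BP1 and 63.1, 65.7 and 62.5 in siSRF. Its siIGF2BP1 libraries lay below all others (log2 fold change -0.90, adjusted p by limma 0.000442). COX8A, another complex IV subunit, had 226, 255 and 249 FPKM in siC, 235, 180 and 211 in siIGF2BP1 and 101, 111 and 115 in siSRF, a log2 fold change of -1.16 in siSRF (adjusted p by limma 0.000354). In complex III, UQCRFS1, the iron-sulfur subunit, was lower in siIGF2BP1 (-0.48), while in siSRF the core subunit UQCRC1 was lower (-0.68) and UQCR11 higher (0.37). In complex I, NDUFAB1 (-0.32) was lower and NDUFB1 was higher (0.49) in siIGF2BP1, whereas in siSRF NDUFAB1 (0.43) and NDUFB9 (0.43) were higher and NDUFV1 was lower (-0.42). In complex V, ATP5G3 was lower in both knockdowns (-0.39 and -0.40), ATP5B was lower in siIGF2BP1 (-0.32), and in siSRF ATP5D was lower (-0.72) and ATP5F1 higher (0.24). COX6A1 of complex IV was higher in siSRF (0.27). The calls of COX4I1 in siIGF2BP1 and of COX8A and UQCRC1 in siSRF were kept in all 6 fits that left out 1 library. Those of ATP5G3 and ATP5B in siIGF2BP1 and of UQCR11, COX6A1 and ATP5F1 in siSRF were kept in 0 of 6, and those of NDUFAB1 and NDUFB1 in siIGF2BP1 and ATP5D in siSRF in 1 of 6. The other calls named were kept in 2 to 5 of 6.

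Both depletions were seen in the libraries. IGF2BP1 had 4.02 to 4.18 FPKM in siIGF2BP1 and 12.1 to 13.5 in siC, and SRF had 1.36 to 1.63 FPKM in siSRF and 13.6 to 16.0 in siC. SRF was also lower in siIGF2BP1, at 5.42 to 6.80 FPKM. Of the epithelial markers, KRT7 (97.5 to 158 FPKM), KRT18 and KRT8 were expressed, MUC16 was listed at 0, and PAX8 and EPCAM did not exceed 0.262 FPKM. The mesenchymal marker VIM stood at 837 to 1065 FPKM. The leukocyte marker PTPRC was listed at 0 and the endothelial marker PECAM1 did not exceed 0.387 FPKM. KRT7 was higher in both knockdowns, by 0.59 in siIGF2BP1 and 0.33 in siSRF, KRT8 in siIGF2BP1 (0.55) and KRT18 in siSRF (0.91), while VIM was lower in siSRF (-0.31). The calls of KRT8 and VIM were kept in 0 of 6 fits that left out 1 library, and that of KRT7 in siSRF in 1 of 6. VIM in siIGF2BP1 was at a log2 fold change of -0.26 with libraries below all those of siC and was not called by limma (adjusted p 0.04), but was by limma-voom (2.6e-08). Whether these differences bear on the nuclear genes above was not tested.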

How the data were processed

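Total RNA of ES-2 cells was depleted of rRNA, and strand-specific libraries were sequenced. Per the submitters' processing notes and the study's methods, the authors clipped reads with Cutadapt 1.14, aligned them to hg38 with HISAT2 2.1.0, counted them on Ensembl genes with featureCounts 1.5.3 and scaled libraries by TMM in edgeR 3.18.1. The strand setting and the treatment of reads with several placements are not given in the sources used here. The authors deposited FPKM values per library in a table for each knockdown, with identical siC values. The deposited log2 fold changes, p-values and FDR values of the authors' own comparisons were not used. SAMtools 1.5 is also named.

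Groups were taken from the sample labels. The members, gene lists and tests were chosen with earlier results of these data known. Reads were recovered as FPKM times length and library size. Of the 201707 values above 0, 100% came within 0.01 of a whole read, plus a small allowance that grew with the number of reads. Recovered reads per library numbered 6421764 to 9416175, with a median of 7377934. Replicates of a group differed by more than sampling noise in all 9 pairs (chi-square per degree of freedom of 1.73 to 3.94), so none was treated as a duplicate. Whether the 3 libraries of a group came from separate cultures is not given in the sources used here, and p-values measure only the spread between these libraries.

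Each pair of groups was compared by limma 3.58.1 (lmFit and eBayes with trend, R 4.3.3) after adding 0.1 FPKM and taking log2. Genes that averaged 0.1 FPKM or more in the 6 libraries compared were kept, with Benjamini-Hochberg adjustment over all genes tested and a threshold of 0.01. On this scale the changes of low genes are understated. The fit was also run on simulated data. The changes there were larger than most reported here, so that run does not show how often changes of the reported size are missed. Positions were taken from GENCODE 44 for hg38, and each mitochondrial gene was aligned with its copy on chromosome 1 in Biopython 1.88. The alternatives were other pseudocounts, filters and scalings, limma-voom on recovered reads, a fit over all 9 libraries, a replicate block and leaving out each library. Their use for the nuclear genes was chosen after seeing that the planned results had no values. Named genes were all mitochondrial mRNAs and rRNAs, 8 core nuclear genes and, per list, knockdown and direction, up to 2 called genes with the smallest p. Copies, targeted genes and cell markers were named too. One gene that the rule would name is not reported here. MT-TS2, MT-TL1 and the tRNAs of overlapping pairs were named for their length or position.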

Additional observations from a re-analysis of the deposited data

Results flagged for a closer look

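No mitochondrial gene could be examined for an unusual library or for a difference between the knockdowns, since all 37 were listed at 0 in every library. Among the 38 named nuclear genes, leaving aside the copies, targeted genes and cell markers, 27 had an effect of IGF2BP1 depletion that differed from that of SRF depletion. This was tested as the direct difference between the knockdowns by limma, with adjusted p of up to 0.00677. The background over all genes in this comparison was 11.2% lower and 8.82% higher. For protein-coding genes between 3 and 29 FPKM it was 23.5% and 15.6%. Several of the named subunits lie above that range of levels. When 1 library was left out, TEFM, NSUN4 and ATP5F1 were called in 0 of 6 fits and FASTKD5, UQCRFS1 and SP1 in 1 of 6. Negative log2 values mean lower in siIGF2BP1 than in siSRF. Of the 27, 23 were negative. In transcription and genome maintenance these were TFB2M (-0.94), TEFM (-0.53) and TWNK (-0.92). In RNA processing they were MRM3 (-1.25), NSUN4 (-0.45) and PTCD3 (-0.43). In the list of RNA stability and decay they were LRPPRC (-0.52), SLIRP (-0.79), PNPT1 (-0.93), SUPV3L1 (-0.64) and FASTKD3 (-0.70). That list also held FASTKD5 (-0.88), which acts in mRNA processing, and the nucleotide carrier SLC25A33 (-0.96). The synthetases YARS2 (-0.78) and KARS (-0.57), the regulators PPRC1 (-0.46) and MYC (-0.40) and the subunits NDUFAB1 (-0.75), NDUFB9 (-0.66), UQCRFS1 (-0.32), COX4I1 (-0.71), ATP5B (-0.29) and ATP5F1 (-0.22) were negative too. The 4 positive differences were COX8A (0.93), UQCRC1 (0.49), SP1 (0.36) and GARS (0.29). Most of these genes were named because they were called against siC, so the number that differ is partly set by that choice.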

How the results depend on the processing

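The planned results on the mitochondrial mRNAs, their share of reads and MT-ND6 gave no value under any alternative, because 0 of the 37 genes entered any fit. The alternatives below, on nuclear genes, were chosen after seeing the data. Counts are given for siIGF2BP1 against siC, siSRF against siC and siIGF2BP1 against siSRF in that order, lower before higher. Shares over all genes tested were worked out only for the reported fit. A changed count therefore cannot be told from more or fewer calls over all genes. The reported counts were 6 and 1, 3 and 16, and 35 and 3 genes. With limma-voom on recovered reads they were 18 and 2, 6 and 35, and 46 and 3. A fit over all 9 libraries moved the lower calls in siIGF2BP1 against siC to 14, and a minimum mean of 1 FPKM moved them to 11. Leaving out 1 library gave 0 to 1 and 0, then 1 to 2 and 3 to 11, then 21 to 26 and 1 to 2. Pseudocounts of 1 and 0.01, no filter on low values and both rescalings left each count within 1.5 times its reported value.

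Same-numbered libraries did not deviate together over the genes as a whole, with correlations between -0.04 and 0.02. Whether they were transfected or prepared together is not given in the sources used here. With the replicate block the counts were 0 and 0, 1 and 1, and 16 and 1, again without a share over all genes. In siSRF against siC, 1 of the 3 numbers correlated best with itself. None did in siIGF2BP1 against siC or in siIGF2BP1 against siSRF.

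Several differences near 0 changed sign, none of them called. MTCO1P12 in siIGF2BP1 against siSRF was 0.0447 with libraries scaled to their summed reads and 0.0035 with median-ratio factors, and it ranged from -0.0902 to 0.0270 without 1 library. Over the same omissions it ranged from -0.16 to 0.0026 in siIGF2BP1 and from -0.13 to 0.0272 in siSRF against siC. MTATP6P1 in siIGF2BP1 against siC ranged from -0.0541 to 0.125, MTCO3P12 in siIGF2BP1 against siSRF from -0.11 to 0.17, and TFAM in siSRF against siC from -0.0273 to 0.12. The causes were not tested.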
